A study of Mus musculus with 6 samples.

Results

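Fibroblast growth factor (FGF) signalling was followed through 10 genes: the ligands Fgf1 and Fgf2, the ligand carrier Fgfbp3, the receptors Fgfr1, Fgfr2 and Fgfr3, the feedback inhibitors Spry1, Spry2 and Spry4, and the target transcription factor Etv5. They were chosen by symbol, and all 10 were found among the 35857 genes of the files. They were read in 6 RNA-seq libraries made from polyadenylated RNA of cerebral cortex at postnatal day 7, in C57BL/6 mice. Of these, 3 came from control brains with a wild type genotype label and 3 from brains labelled Qk-/-, called knockouts here. Quaking, the product of Qk, is an RNA-binding protein of glia and neural progenitors, and the series, by its title, concerns the switch of neural stem cells from neurogenesis to gliogenesis. Which exons were removed, and in which cells, is not given in the sources used here. Levels are in TPM, a transcript abundance that divides a gene's reads by its length and gives every library the same total; values of single libraries are given in the order of replicates 1, 2 and 3.

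FGF ligands are secreted proteins that bind receptor tyrosine kinases at the cell surface together with heparan sulfate. The bound receptor activates the RAS and ERK kinase cascade, which switches on ETS transcription factors such as Etv5. The same cascade induces its own inhibitors, among them the Sprouty proteins, so Spry and Etv5 transcripts are widely used as readouts of the pathway. In the developing cortex, FGF signalling acts on radial glia, on astrocytes and on cells of the oligodendrocyte lineage.

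In the knockout cortex, 3 of the 10 genes fell: Fgf1, Fgfbp3 and Fgfr3. None rose at the threshold, an adjusted p of 0.05 over all 14994 genes tested with limma. Fgfr1, Spry1, Spry2, Spry4 and Etv5 had higher values in each knockout library than in any control library, with adjusted p from 0.119 to 0.487. Fgfr2 overlapped between the groups, and Fgf2 lay under the filter of a mean of 1 TPM, so that 9 of the 10 were tested. Over all tested genes 0.287% fell and 0.1% rose at the same threshold. The groups did not overlap, with the knockout libraries lower, in 8.98% of tested genes and, with the knockout libraries higher, in 5.2%. The 10 genes were chosen with earlier results of these data known, so these counts describe them and do not test them as a set.

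Quaking binds RNA at the letters ACUAAC or ACUAAU, written here as ACTAAC or ACTAAT, often with a second short motif nearby. Those letters were looked for on the transcript strand of 1 3' untranslated region per gene, taken from GENCODE transcripts of GRCm38. Windows of 30 bases around the matches in Etv5, Spry2 and Fgf2 are shown, 5' to 3', as places where transcripts carry the letters that quaking is known to bind. Spry4 and Fgfr1 also held matches, which are counted below and whose windows are not printed. Capitals mark the motif.
Etv5, chr16:22382412-22382441, minus strand: ttctccatgctcACTAACtctccttctctg
Spry2, chr14:105892277-105892306, minus strand: acaaaatattatACTAATatgttgtacatt
Fgf2, chr3:37406052-37406081, plus strand: aacttgggactcACTAACaccaaaatggaa
Fgf2, chr3:37406988-37407017, plus strand: gttcctagcaccACTAATctgactcgctgt
Fgf2, chr3:37409217-37409246, plus strand: atctttataattACTAATactgatgaacaa

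Among the genes that fell, Fgf1 (3254 bases of 3' untranslated region), Fgfbp3 (914 bases) and Fgfr3 (1508 bases) held 0 matches each. A match was present in 62.2%, 24.3% and 37.5% of the tested genes whose region was within 20% of those lengths. Etv5 (2161 bases) and Spry2 (856 bases) held 1 match each, where 46.9% and 23.5% of genes of like length held at least 1. Spry4 (3559 bases) held 3, Fgfr1 (1797 bases) held 1, Fgf2 (5311 bases) held 3, and Spry1 (1047 bases) and Fgfr2 (250 bases) held 0. For Spry4, Fgfr1, Fgf2, Spry1 and Fgfr2 the shares among genes of like length were 65.2%, 42.1%, 78.1%, 28.1% and 7.42%. A second motif, TAAC or TAAT within 20 bases, lay near 1 of the 3 matches of Fgf2 and near the match of Fgfr1, and near none of those in Etv5, Spry2 and Spry4. Among genes of like length, 37.5% (Fgf2), 15.4% (Fgfr1), 19.2% (Etv5), 7.93% (Spry2) and 27.9% (Spry4) held a match with such a second motif. Over all tested genes with a region of at least 100 bases, the share was 13.7%. A match describes the letters only. It is no evidence of binding, and its absence from these regions says nothing of other transcripts, introns or coding sequence.

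Qk itself read 36.5, 43.2 and 41.3 TPM in the controls against 14.6, 15.2 and 15.4 TPM in the knockouts, so the libraries matched their labels. Between 18971 and 19710 genes per library had a value above 0. The depth of the libraries is unknown, since TPM keeps no read counts. The markers of excitatory neurons (summed level 997 to 1050 TPM in control and 1020 to 1030 TPM in knockout) and of the other 10 cell types looked at were above 0 in every library, while the late myelin genes Mog and Mobp were close to 1 TPM.

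**Figure D1:**
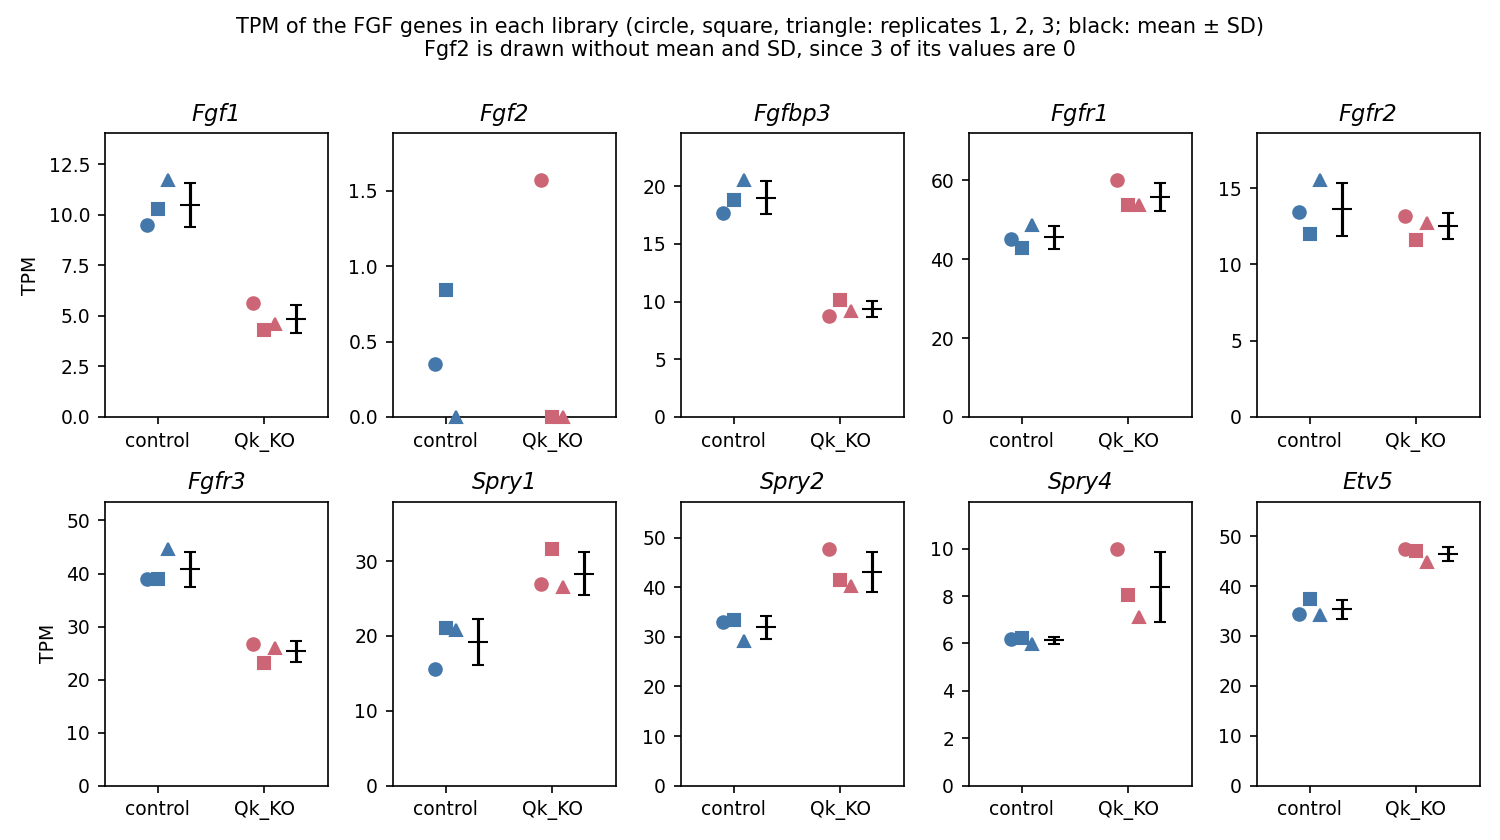
TPM of each of the 10 genes in the 6 libraries, on a separate linear axis from 0 for each gene. Symbols are single libraries (blue control, red knockout), and black marks are the group mean ± SD (n = 3), which are not drawn for Fgf2. Fgf1, Fgfbp3 and Fgfr3 lie lower in all 3 knockout libraries, and Fgfr1, Spry1, Spry2, Spry4 and Etv5 lie higher.

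Of the ligands Fgf1 and Fgf2, the first passed the filter on low values, and it fell. Fgf1 (Entrez 14164, chr18:38838672-38929470, GRCm38.p6) encodes acidic FGF, which can bind all of the FGF receptors. It read 9.51, 10.3 and 11.7 TPM in the controls against 5.64, 4.29 and 4.61 TPM in the knockouts. Every knockout value was below every control value. The mean went from 10.5 ± 1.08 to 4.85 ± 0.705 TPM (SD, n = 3), or 0.461 times the control level, and the log2 change of TPM + 1 was −0.98 (95% interval −1.31 to −0.65, limma adjusted p = 0.0281). The call was lost whichever of the 6 libraries was left out (adjusted p = 0.0551 to 0.185, highest without control replicate 3) with no filter on low values (adjusted p = 0.111) and with the replicate number as a block (adjusted p = 0.0927), while the log2 change stayed between −1.07 and −0.91 in those 6 refits.

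Fgf2 (Entrez 14173, chr3:37348477-37410106), which encodes basic FGF, was barely detected. Its values were 0.35, 0.84 and 0 TPM in the controls against 1.57, 0 and 0 TPM in the knockouts. The groups overlapped, 3 of the 6 libraries listed it at 0, and no fold change is given. The 3' end of Fgf2 overlaps Nudt6, a gene on the opposite strand, and the sources used here do not say whether strand was used in counting. The means of Nudt6 were 10.3 ± 1.84 and 10.6 ± 2.61 TPM (SD, n = 3).

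Fgfbp3 had the smallest adjusted p of the 10 genes. It encodes an FGF-binding protein that carries ligands away from the heparan sulfate of the matrix (Entrez 72514, chr19:36917550-36919599). The controls read 17.7, 18.8 and 20.5 TPM against 8.75, 10.1 and 9.2 TPM in the knockouts. All knockout values lay under all control values. The mean fell from 19.0 ± 1.41 to 9.35 ± 0.682 TPM (SD, n = 3), 0.493 times the control level, with a log2 change of −0.95 (95% interval −1.20 to −0.70, limma adjusted p = 0.00814). The call was lost without control replicate 2 (adjusted p = 0.0678) or control replicate 3 (adjusted p = 0.0686), and without knockout replicate 1 the adjusted p was 0.05 after rounding, just inside the threshold. Fgfbp1, which encodes another carrier of the same family, was at 8.27 ± 1.76 and 7.75 ± 0.744 TPM (limma adjusted p = 0.95).

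Of the receptors, Fgfr3 passed the threshold and fell. Fgfr3, the FGF receptor best known as an astrocyte gene (Entrez 14184, chr5:33721724-33737068), read 39.0, 38.9 and 44.6 TPM in the controls against 26.7, 23.2 and 26.0 TPM in the knockouts. The groups did not overlap. Its mean fell from 40.8 ± 3.25 to 25.3 ± 1.89 TPM (SD, n = 3), 0.619 times the control level, with a log2 change of −0.67 (95% interval −0.89 to −0.45, limma adjusted p = 0.0244). Like that of Fgf1, its call was lost whichever of the 6 libraries was left out (adjusted p = 0.0635 to 0.128, highest without control replicate 3) with no filter on low values (adjusted p = 0.0616) and with the replicate block (adjusted p = 0.0655), while the log2 change stayed between −0.71 and −0.61 in the 6 refits.

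Fgfr1, the receptor with the highest level of the 10 genes in both groups (Entrez 14182, chr8:25518759-25575718), did not pass. Its values were 45.2, 42.8 and 48.7 TPM in the controls against 60.0, 53.7 and 53.7 TPM in the knockouts. The knockout values were all above the control values. The means were 45.6 ± 2.96 and 55.8 ± 3.65 TPM (SD, n = 3), with a log2 change of 0.29 (95% interval 0.09 to 0.48, limma adjusted p = 0.331). Fgfr2 (Entrez 14183, chr7:130162451-130266808) read 13.4, 12 and 15.5 TPM in the controls against 13.2, 11.6 and 12.7 TPM in the knockouts. Its groups overlapped, and its log2 change of −0.11 had a 95% interval of −0.39 to 0.17 (limma adjusted p = 0.861). Fgfr4 was at 1.15 ± 0.501 and 0.83 ± 0.406 TPM and lay under the filter.

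Because TPM are per length, the receptors could be set against each other within a library. Fgfr1 took 46.3%, 45.7% and 44.8% of the summed TPM of Fgfr1, Fgfr2 and Fgfr3 in the controls. In the knockouts it took 60.0%, 60.7% and 58.1%. The share of Fgfr3 went the other way, from 40.8% ± 0.764 in control to 27.0% ± 1.04 in knockout cortex (SD, n = 3), while that of Fgfr2 was 13.6% ± 0.709 and 13.3% ± 0.321. The ratio of Fgfr1 to Fgfr3 was 1.16, 1.10 and 1.09 in the controls and 2.25, 2.32 and 2.06 in the knockouts. The sum of the 3 receptors was 93.8 to 109 TPM in control and 88.4 to 100 TPM in knockout libraries, ranges that overlapped. These shares are a description without a test, built from the same values as the receptor levels above.

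**Figure D2:**
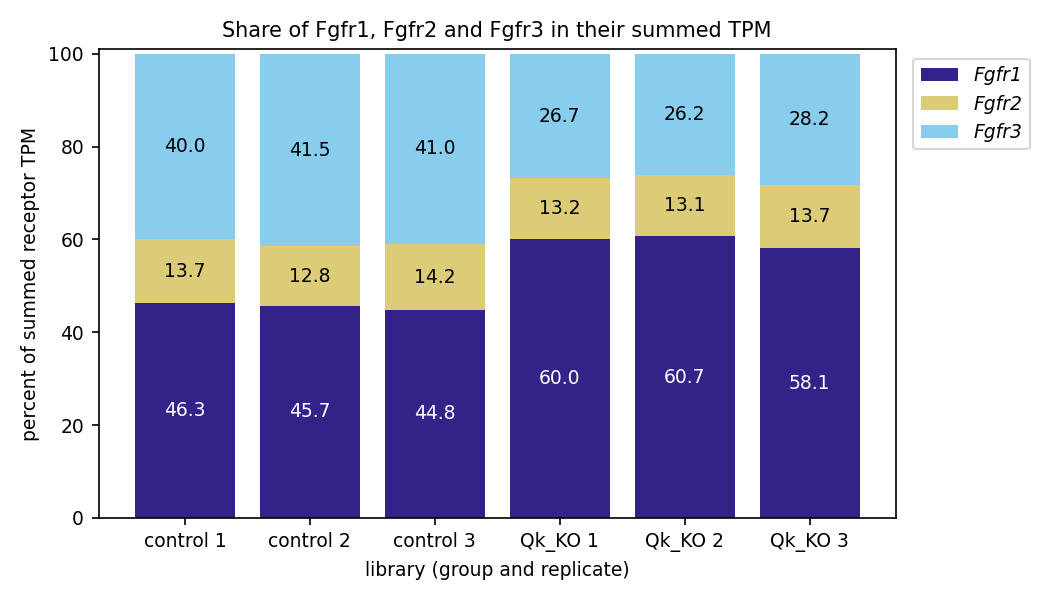
Stacked bars of the percent of the summed TPM of Fgfr1, Fgfr2 and Fgfr3 taken by each receptor, 1 bar per library, adding to 100%. Fgfr1 takes 44.8% to 46.3% in the control libraries and 58.1% to 60.7% in the knockout libraries, Fgfr3 takes 40.0% to 41.5% and 26.2% to 28.2%, and Fgfr2 lies between 12.8% and 14.2% throughout.

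The Sprouty genes, whose products restrain signalling from receptor tyrosine kinases to ERK, had higher values in knockout cortex, but none passed the threshold. Spry2 (Entrez 24064, chr14:105891947-105896819) read 33.0, 33.5 and 29.2 TPM in the controls against 47.7, 41.5 and 40.2 TPM in the knockouts. Its groups did not overlap, and the log2 change was 0.42 (95% interval 0.20 to 0.64, limma adjusted p = 0.173). Spry1 (Entrez 24063, chr3:37639947-37644599) read 15.6, 21.0 and 20.8 TPM in the controls against 26.9, 31.6 and 26.5 TPM in the knockouts. Its lowest control value came from replicate 1, and all knockout values were above all control values. The log2 change was 0.55 (95% interval 0.25 to 0.85, limma adjusted p = 0.195), the highest among the 10 genes.

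Spry4 (Entrez 24066, chr18:38586247-38601347) had the lowest level of the Sprouty genes. The controls read 6.18, 6.24 and 5.98 TPM against 9.98, 8.05 and 7.12 TPM in the knockouts. The controls were close together and the knockout libraries spread, with an SD of 0.136 TPM against 1.46 TPM (n = 3), and the ranges did not overlap. The log2 change was 0.38 (95% interval 0.05 to 0.71, limma adjusted p = 0.487). Summed over Spry1, Spry2 and Spry4, the level was 54.7, 60.8 and 56.1 TPM in the controls and 84.5, 81.1 and 73.8 TPM in the knockouts.

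Etv5 (Entrez 104156, chr16:22381313-22439570) encodes an ETS transcription factor of the PEA3 subfamily that FGF signalling switches on. It read 34.4, 37.4 and 34.1 TPM in the controls against 47.4, 47.1 and 44.8 TPM in the knockouts. The groups did not overlap, and the means were 35.3 ± 1.82 and 46.4 ± 1.41 TPM (SD, n = 3). With a log2 change of 0.38 (95% interval 0.21 to 0.56, limma adjusted p = 0.119), it came nearest to the threshold among the genes with higher knockout values. Fgfr1, Spry1, Spry2, Spry4 and Etv5 were the 5 tested members with an unadjusted p under 0.05 and a positive log2 change, a class that held 3.42% of all tested genes; Fgf1, Fgfbp3 and Fgfr3 were the 3 with such a p and a negative change, against 5.3%. None of the 5 with positive changes passed an adjusted p of 0.05 in any of the 14 other settings of the fit, where the lowest adjusted p was 0.0963, for Etv5 under the stricter filter of 5 TPM.

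**Figure D3:**
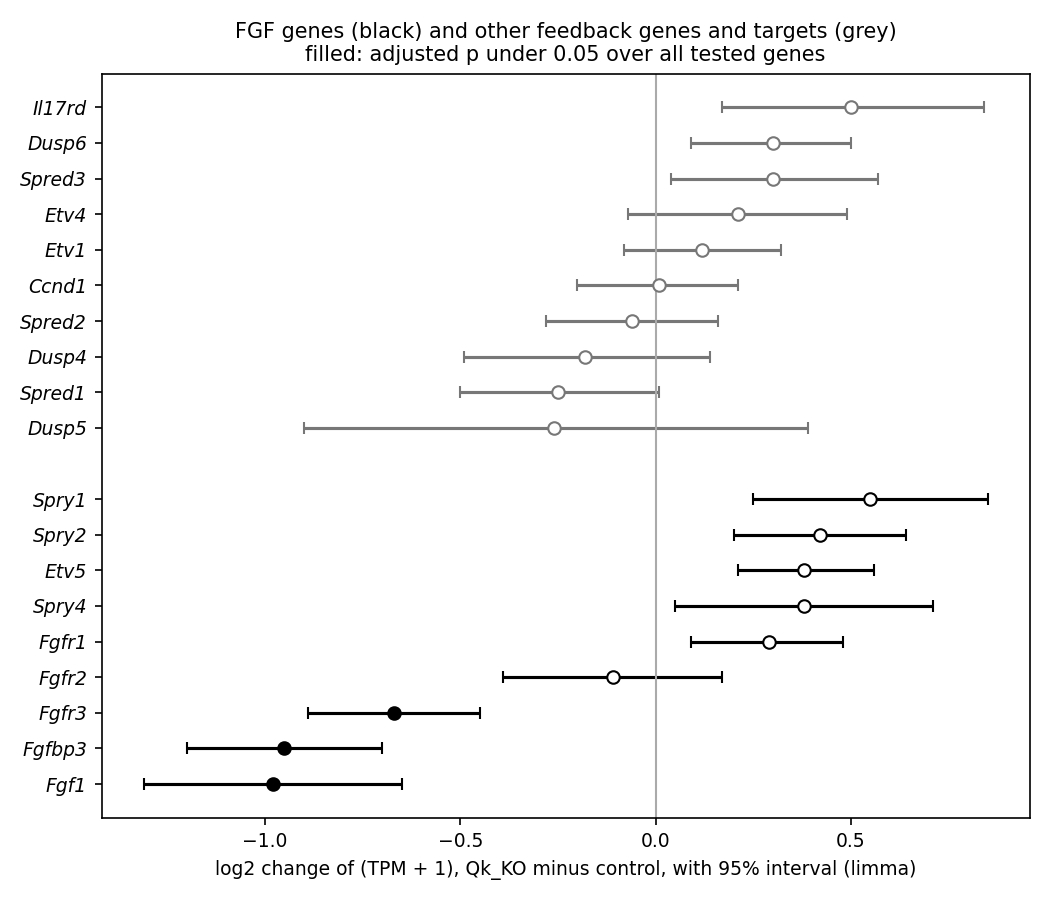
Log2 change of TPM + 1, knockout minus control, with the 95% interval from limma, for the 9 tested members (black) and 10 other feedback genes and targets (grey); filled points passed an adjusted p of 0.05. Fgf1, Fgfbp3 and Fgfr3 are filled and lie between −0.98 and −0.67, and Spry1, Spry2, Etv5, Spry4 and Fgfr1 lie between 0.29 and 0.55, unfilled.

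The order of the levels differed between the groups. In control cortex the means ran from Fgfr1 (45.6 TPM) and Fgfr3 (40.8 TPM), whose library values overlapped, through Etv5 (35.3 TPM), Spry2 (31.9 TPM), Spry1 (19.2 TPM), Fgfbp3 (19.0 TPM), Fgfr2 (13.6 TPM), Fgf1 (10.5 TPM) and Spry4 (6.13 TPM) to Fgf2. Spry1 and Fgfbp3 also overlapped there, and the other neighbours did not. In knockout cortex Fgfr1 (55.8 TPM) was followed by Etv5 (46.4 TPM), Spry2 (43.1 TPM), Spry1 (28.3 TPM), Fgfr3 (25.3 TPM), Fgfr2 (12.5 TPM), Fgfbp3 (9.35 TPM), Spry4 (8.38 TPM), Fgf1 (4.85 TPM) and Fgf2. Neighbours with overlapping values were Etv5 and Spry2, Spry1 and Fgfr3, and Fgfbp3 and Spry4. Fgfr3 thus stood at rank 2 in control cortex and at rank 5 in knockout cortex.

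The tested members were also compared by the root mean square distance between their log2(TPM + 1) values, centred on each gene's mean over the 6 libraries. Among members, the closest pairs were Spry2 and Spry4 (0.0737) and Spry2 and Etv5 (0.0769), and Fgf1 lay 0.151 from Fgfbp3 and 0.169 from Fgfr3. Over all tested genes, the nearest to Fgfr3 were Adamtsl2 (0.0525), Pon2, a paraoxonase (0.0531), Mfsd2a, a lipid transporter of brain endothelium (0.07), Ttyh1, a tweety-family membrane protein (0.073), and Hopx, a homeodomain protein of radial glia and astrocytes (0.0755). The nearest to Fgfbp3 were Plpp3, a lipid phosphatase (0.0776), the myelin gene Mbp (0.0839), Gldc of the glycine cleavage system (0.0894), Sfxn5 (0.0986) and the endothelin receptor gene Ednrb (0.124). For Fgf1 they were the sialidase gene Neu4 (0.0597), the sphingosine-1-phosphate receptor gene S1pr1 (0.0746), Emp2 (0.0909), Ttpa (0.106) and the myelin gene Cnp (0.115). Of these neighbours, 3 did not pass the threshold and the others fell at it. The 3 were Adamtsl2 (control and knockout means 8.57 and 5.34 TPM, limma adjusted p = 0.191), Neu4 (2.16 and 0.563 TPM, 0.177) and Ttpa (2.15 and 0.793 TPM, 0.295). The distances rest on 6 libraries and describe likeness of values only. Genes picked as nearest to a member that fell share its fall by that choice, so the falls among them are no separate result.

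Glial marker genes moved beside the members that fell. Of 10 astrocyte markers, 5 fell (Slc1a3, Mlc1, S100b, Acsbg1 and Gja1) and none rose, and their summed level was 1130 to 1200 TPM in control and 770 to 832 TPM in knockout libraries, with none of the 10 at 0. Within that list Slc1a3, the glutamate transporter GLAST, went from 265 ± 11.3 to 112 ± 4.86 TPM, whereas the means of the water channel gene Aqp4 were 49.1 ± 3.29 and 46.4 ± 1.86 TPM, and those of Aldh1l1 were 55.5 ± 7.22 and 77.0 ± 4.93 TPM (SD, n = 3). Of 6 tested myelinating oligodendrocyte markers, 3 fell (Mbp, Cnp and Bcas1), with a summed level of 257 to 269 TPM in control and 147 to 165 TPM in knockout libraries over all 7. The 7 precursor markers summed to 314 to 356 and 350 to 386 TPM, with Olig2 higher and Gpr17 lower at the threshold. Olig1 (control and knockout means 138 and 185 TPM, not past the threshold) and Olig2 were the 2 with positive log2 changes. The other genes of that list had negative ones, and the list median was −0.2. The 8 radial glia markers summed to 1390 to 1640 and 1430 to 1600 TPM, with 1 rise (Vim) and 2 falls (Hopx and Slc1a3). Fabp7 (control and knockout means 900 and 1050 TPM, groups overlapping) made up most of that sum. The sum therefore says little of the other genes of the list, and Slc1a3 is also an astrocyte marker here. Of the 13 marker genes past the threshold over all lists, Slc1a3, S100b, Mlc1 and Mbp passed in each refit on 5 libraries, Gja1 and Foxj1 in 0 of 6, and the others in 1 to 4. Foxj1, of the choroid plexus and ependyma list, rose from 8.6 ± 1.48 to 16.3 ± 1.13 TPM (SD, n = 3, limma adjusted p = 0.0428). Among the other cell types, the summed level of 6 inhibitory neuron markers was 1630 to 1870 TPM in control and 2070 to 2140 TPM in knockout libraries, and that of 6 pericyte and smooth muscle markers was 248 to 268 and 205 to 230 TPM. Neither pair of ranges overlapped, and no single gene of these lists passed the threshold. Most of the inhibitory sum came from Sst (control and knockout means 1050 and 1310 TPM) and Npy (387 and 481 TPM). Gad1 (108 and 113 TPM), Gad2 (26.1 and 26.4 TPM), Slc32a1 (126 and 126 TPM) and Lhx6 (39.1 and 39.8 TPM) overlapped between the groups. Vtn (172 and 138 TPM) made up most of the pericyte and smooth muscle sum, and the other genes of that list overlapped. In whole cortex, fewer cells of a type and less RNA per cell cannot be told apart, and the part of these markers in the values of Fgf1, Fgfbp3 and Fgfr3 was not tested.

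The rest of the pathway was looked at in a list of 90 further genes, of which 89 were matched by symbol and 75 were tested. None passed the threshold with limma, where 0.387% of all tested genes did, and 8 had an unadjusted p under 0.05, against 8.72% of all tested genes. Their median log2 change was −0.06, and that of all tested genes was −0.03. With so low a background share, a count of 0 among 75 genes does not set them apart from other genes.

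Among the other feedback inhibitors and targets, 10 genes were tested. Of these, 3 had higher values in every knockout library than in any control library, where 5.2% of all tested genes did, and 1 had lower values in each, where 8.98% did. Il17rd, which encodes the FGF signalling inhibitor Sef, read 3.35, 3.55 and 3.28 TPM in the controls against 5.40, 4.72 and 5.58 TPM in the knockouts (log2 change 0.50, limma adjusted p = 0.325). Dusp6, an ERK phosphatase that FGF signalling induces, read 35.0, 38.6 and 35.9 TPM in the controls against 49.8, 43.2 and 42.5 TPM in the knockouts (log2 change 0.30, limma adjusted p = 0.352). The third was Spred3, a Sprouty-related gene (log2 change 0.30, limma adjusted p = 0.497). Its relative Spred1 was the gene with lower values in each knockout library (log2 change −0.25, limma adjusted p = 0.59). Spred2, the related gene with one of the 2 highest levels of this list, was at 33.7 ± 1.77 and 32.3 ± 3.08 TPM. The PEA3 relatives of Etv5 did not pass either: Etv4 had a log2 change of 0.21 and Etv1 of 0.12, with intervals that include 0. The median of the list was 0.06, with 6 of 10 changes positive, where 43.0% were positive over all tested genes.

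Of 16 other secreted FGF ligands, 4 reached the filter and 4 were listed at 0 in all 6 libraries (Fgf4, Fgf6, Fgf20 and Fgf21). Fgf18 had the highest level among them, with means of 5.15 ± 1.11 TPM (control) and 5.31 ± 0.279 TPM (knockout). Fgf9 was at 3.15 ± 0.118 and 2.99 ± 0.22 TPM, Fgf10 at 2.61 ± 0.593 and 1.95 ± 0.526 TPM, and Fgf22 at 1.78 ± 1.96 and 0.937 ± 1.31 TPM (SD, n = 3). Fgf1 thus had the highest mean of the secreted ligands listed in control cortex, whereas in knockout cortex the mean of Fgf18 was above that of Fgf1; the knockout values of these 2 genes, 5.12 to 5.63 and 4.29 to 5.64 TPM, overlapped. The intracellular FGF homologous factors, which share the fold but act inside neurons rather than on FGF receptors, had higher levels in every library than any secreted ligand listed. Fgf13 was at 180 ± 18.4 and 181 ± 6.2 TPM, Fgf12 at 40.8 ± 3.61 and 43.2 ± 2.58 TPM, Fgf11 at 32.0 ± 4.68 and 26.4 ± 4.93 TPM, and Fgf14 at 16.6 ± 1.34 and 16.7 ± 2.33 TPM, with none of the 4 past the threshold.

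Of the co-receptors and related surface proteins, Fgfrl1, a receptor without a kinase domain, was at 19.2 ± 1.79 and 20.3 ± 2.46 TPM, and Flrt2, one of the FLRT adhesion proteins that bind FGF receptors, at 16.5 ± 0.66 and 16.1 ± 1.79 TPM (SD, n = 3). Flrt1 was lower in every knockout library, at 6.86 ± 0.292 and 5.70 ± 0.35 TPM (limma adjusted p = 0.667). Klotho (Kl), a co-receptor also made by the choroid plexus, was at 3.15 ± 0.69 and 2.12 ± 0.494 TPM. Together 6 markers of choroid plexus and ependyma, including Kl, summed to 753 to 1540 TPM (control) and 688 to 1040 TPM (knockout). Nearly all of that sum came from Ttr (control and knockout means 1210 and 783 TPM), whose groups overlapped, while Foxj1 of the same list rose. Of 26 heparan sulfate genes, 3 had an unadjusted p under 0.05, where 8.72% of all tested genes did. The sulfotransferase genes Hs6st3 (26.7 ± 0.46 and 21.3 ± 3.04 TPM) and Hs3st1 (53.5 ± 3.5 and 62.8 ± 2.65 TPM) had the smallest p of them (limma adjusted p = 0.446 and 0.445), and the third was the glypican gene Gpc4 (log2 change 0.26, limma adjusted p = 0.572). Sdc3, a syndecan, had the highest level of the list at 346 ± 9.78 and 328 ± 31.2 TPM, followed by Agrn, which encodes agrin, at 171 ± 7.32 and 156 ± 8.45 TPM (SD, n = 3).

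The adaptors and kinases between receptor and nucleus had small log2 changes. The 25 genes had log2 changes from −0.23 to 0.11 and a median of −0.04. Mapk3, which encodes ERK1, had means of 388 ± 7.16 and 385 ± 27.3 TPM, and Hras of 482 ± 49.5 and 440 ± 11.3 TPM (SD, n = 3). Map2k2, which encodes the ERK kinase MEK2 (143 ± 9.28 and 123 ± 11.2 TPM, limma adjusted p = 0.519), and Pik3r1, a regulatory subunit of PI3-kinase (47.9 ± 1.88 and 42.2 ± 2.1 TPM, limma adjusted p = 0.57), had the smallest p of this list. RNA levels do not show the activity of these kinases, which is set by phosphorylation.

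**Figure D4:**
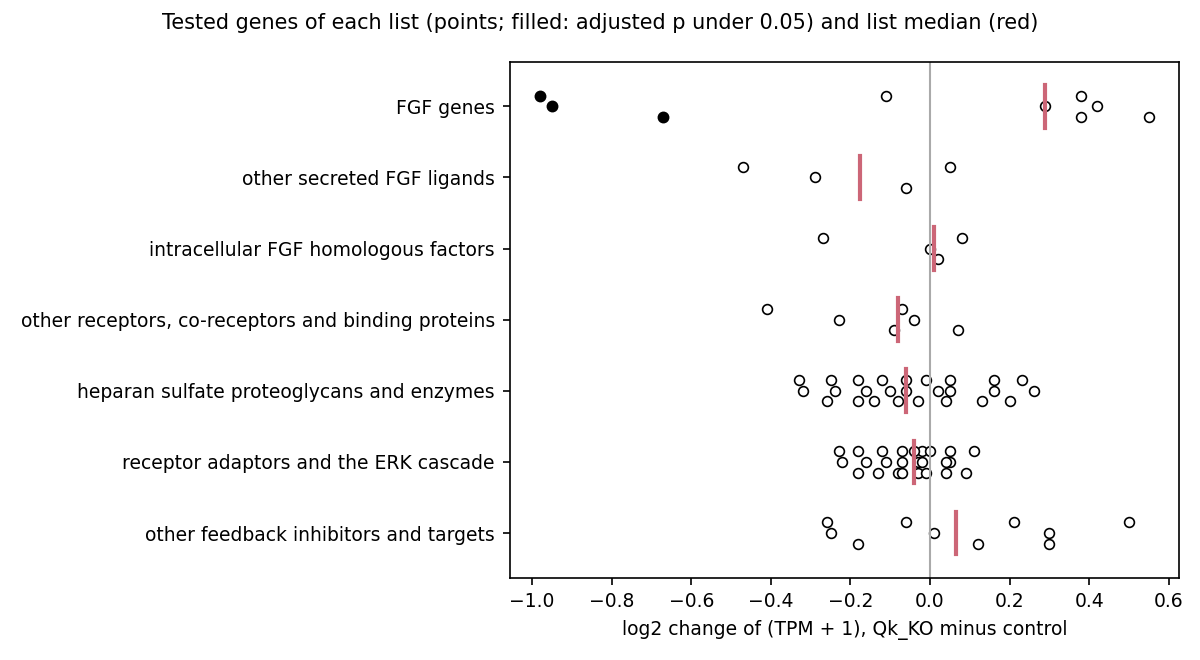
Log2 change of TPM + 1, knockout minus control, for every tested gene of the FGF members and of 6 further lists of the pathway; filled points passed an adjusted p of 0.05 and red bars are list medians. The 3 filled points, between −0.98 and −0.67, are all members, and the 25 adaptor and kinase genes lie between −0.23 and 0.11.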

How the data were processed

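Polyadenylated RNA was sequenced on the Ion Proton, per the labels' protocols, and the submitters' processing notes name STAR 2.4.1d, RSEM 1.3.0 and the builds GRCm38.p4 and mm10. The authors deposited 1 TPM value per gene and library. TPM sum to 1000000 per library, so genes compete for a fixed total, and depth and counting error are unknown. Groups and replicate numbers came from the sample titles. TPM were used as deposited. The 14994 genes whose mean reached 1 TPM entered a limma 3.58.1 fit (R 4.3.3) of log2(TPM + 1) on group alone, using eBayes with a trend. The two-sided p-values received Benjamini-Hochberg adjustment over these genes, with a threshold of 0.05. The pseudocount understates changes of low genes. The fit was tested on simulated data. The design text counts brains, so the spread tested is that between brains. No 2 libraries were duplicates (50 to 75 identical values among tested genes).

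The members and lists were chosen with earlier results of these data known. Named genes were the members, the pathway genes past the threshold, those with the 2 smallest p and the 2 highest mean TPM of each list, and the 5 nearest genes of each called member. Fgfbp1, Fgfr4, Nudt6, Etv1, Etv4, Fgf14, Spred1, Spred3, Gpc4, the ligands listed at 0 and the marker genes were named outside this rule, after their values were seen. Coordinates are from RefSeq's table of GRCm38.p6. For 3' untranslated regions, the principal protein-coding GENCODE M21 transcript with the longest region was taken, for 12796 tested genes with at least 100 bases and for the members. Motif windows were read from the same transcripts, and none is printed for Fgf1, Fgfr1 and Spry4. Alternatives were pseudocounts of 0.1 and 0.5, no filter or one of 5 TPM, median-of-ratios and quantile scaling, a robust prior, the replicate number as a block, and leaving out each library.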

Additional observations from a re-analysis of the deposited data

How the results depend on the processing

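All 9 tested members kept the sign of their log2 change in the 14 other settings. The number of members past the threshold was 3 with either pseudocount, with the 5 TPM filter, under both scalings and with the robust prior. It was 1, Fgfbp3, with no filter and with the replicate block, and 0 to 1 with any single library left out. The count over all genes was 58, with 37 when no filter was used, 38 with the replicate block, 74 with the 5 TPM filter, 72 with the robust prior, 51 to 58 with the other scalings and pseudocounts, and 20 (without control replicate 2) to 53 in the 6 refits on 5 libraries; the cause was not tested. Among the genes named by rule from the pathway, the log2 changes of 7, with limma adjusted p from 0.879 to 0.978, turned sign in some setting. With a library left out, that of Fgf13 (0.02) lay between −0.06 and 0.08, of Fgf18 (0.05) between −0.07 and 0.18, of Fgf22 (−0.47) between −0.99 and 0.07, of Fgfrl1 (0.07) between −0.02 and 0.14, of Flrt2 (−0.04) between −0.09 and 0.05, of Mapk3 (−0.01) between −0.07 and 0.02, and of Spred2 (−0.06) between −0.12 and 0.01. Under median-of-ratios scaling that of Mapk3 was 0.02, and with quantile normalization that of Flrt2 was 0.00. None of the pathway genes outside the members passed in any setting. The replicate numbers share no stated litter or day. Deviations of same-numbered libraries correlated at 0.035, 0.031 and 0.013, so the pairs did not reach the 0.1 set for pairing, although each library correlated best with its own number. Under the block, Fgf1 (adjusted p = 0.0927) and Fgfr3 (0.0655) were not called and Fgfbp3 was (0.033). Median-of-ratios scaling moved the median log2 change of all genes from −0.0263 to 0.0017. Genes near 1 TPM, such as Fgf2 and Fgf22, cannot be resolved with 3 libraries per group.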
